A study of Mustela putorius furo with 9 samples.

Results

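Mitochondrial ribosomal protein genes are the nuclear genes for the proteins of the ribosome that works inside mitochondria. They were chosen by their identifiers: every gene of the deposited table whose symbol starts with MRPL or MRPS followed by a digit was a member. The rule found 74 genes among the 28494 of the table. By the known place of each protein, 48 belong to the large subunit, among them MRPS18A and MRPS30 in spite of their names, and 25 to the small subunit. The remaining gene, MRPS36, carries the family name but is known as a component of the 2-oxoglutarate dehydrogenase complex. For a test, a gene needed at least 1 FPKM in at least 3 libraries. FPKM is the number of sequenced fragments per length of gene and per size of library. This filter kept 11840 genes, with 73 of the 74 members among them, and MRPL15 was left out.

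The mitochondrial ribosome makes the few proteins that mitochondrial DNA encodes, which are core subunits of the respiratory chain and of ATP synthase. Its RNAs come from mitochondrial DNA, whereas its proteins are encoded in the nucleus, made in the cytosol and imported. Many of the proteins descend from bacterial ribosomal proteins, and others were added during the evolution of mitochondria and have no bacterial counterpart. The large subunit joins amino acids and holds the exit tunnel. The small subunit reads the messenger RNA.

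The cells were NBL-7, which the labels call a ferret epithelial line. The same name is in use for a mink lung line, and the species was not tested. Culture was in DMEM with serum, and the study concerned particulate matter, the fine dust of polluted air. RNA sequencing gave 9 libraries in 3 groups of 3. The group titled Ep1 is labelled untreated, the group titled Ep2 is labelled as given particulate matter at 250 µg/mL, and the group titled PBS1 is labelled as given 500 µg/mL. Since PBS commonly names a saline buffer that serves as a vehicle, the PBS1 title and its label differ in kind, and all 3 pairs of groups were compared. A dose order was therefore not read from the data, and neither the length of exposure nor the source of the particles is in the labels. The libraries titled Ep1_1 to Ep2_3 are called by those names, and those of the PBS1 group by their column names PBS1, PBS2 and PBS3, which could not be tied to single titles. No label states that a group's libraries are separate cultures. The p-values therefore reflect the spread among these libraries alone, and it may be technical.

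Sequencing depth, recovered from the deposited values, was 12469849 to 13533480 fragments per library. Library Ep1_1 stood apart from its group. Over all tested genes its correlation with the 3 PBS columns was between 0.992 and 0.994, whereas it was 0.991 with Ep1_2 and 0.990 with Ep1_3. The main results that turn on it are therefore given with and without it. Of 7 epithelial marker genes, KRT8, KRT19 and NKX2-1 were detected, while EPCAM was listed at 0 in all libraries and CDH1, KRT18 and CLDN4 were near 0. The summed level of the 7 was 427 to 474 FPKM in the PBS columns, 336 to 435 FPKM in Ep1 and 307 to 323 FPKM in Ep2, and its part in the differences described here was not tested. Summed markers of fibroblasts and leukocytes were at most 3.73 and 2.77 FPKM in any library, and those of endothelium were between 12 and 17.7 FPKM, nearly all of it from TEK, with CDH5 listed at 0 and PECAM1, VWF and KDR near 0.

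The members together made up a similar small share of the transcriptome in each library. They held 0.645% to 0.684% of all FPKM in the PBS columns, 0.607% to 0.657% in Ep1 and 0.620% to 0.639% in Ep2. The summed level was 3081 to 3293 FPKM in the PBS columns, 2779 to 3156 FPKM in Ep1 with Ep1_1 the highest, and 2882 to 2945 FPKM in Ep2. The ranges of Ep1 and the PBS columns overlap through Ep1_1 alone. Without it, the Ep1 libraries summed to 2779 and 2885 FPKM (0.607% and 0.625%), below every PBS column. The ranges of Ep1 and Ep2 overlap, and every PBS column lies above every Ep2 library. The median member stood between 35.7 and 39.7 FPKM. The highest means over the 9 libraries were those of MRPL51, a large-subunit protein without a bacterial counterpart, MRPL17, at the rim of the exit tunnel, and MRPL18, at 102, 101 and 95.8 FPKM. MRPL49 and MRPS36 were the lowest of the tested members, at 6.13 and 6.31 FPKM.

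Between members the groups differed in both directions. MRPL20 and MRPS15 are described first because the selection named them as members that move oppositely, with earlier results of these data known. Their opposite movement is therefore no separate evidence, and neither are the size and the p-values of their differences. MRPL20 is the counterpart of bacterial L20, a protein needed to assemble the large subunit in Escherichia coli. It measured 27.3, 22.5 and 24.3 FPKM in columns PBS1, PBS2 and PBS3, then 30.7, 29.7 and 39.3 FPKM in Ep1_1, Ep1_2 and Ep1_3, and 49.2, 63.2 and 70.3 FPKM in Ep2_1, Ep2_2 and Ep2_3. The 3 groups did not overlap at any pair, with every Ep2 library above every Ep1 library and every Ep1 library above every PBS column. The means were 24.7 ± 2.40, 33.2 ± 5.32 and 60.9 ± 10.8 FPKM (SD, n = 3 each) for PBS1, Ep1 and Ep2. On the log2(FPKM + 1) scale MRPL20 was higher in Ep2 than in Ep1 by 0.85 (SE 0.14, limma adjusted p = 0.00458), and PBS1 minus Ep2 was -1.26 (SE 0.14, limma adjusted p = 0.000299). The difference of PBS1 minus Ep1, -0.41 (SE 0.14), did not pass, with a limma adjusted p of 0.132. Both calls held in every alternative tried, each library left out included.

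MRPS15 is the counterpart of bacterial S15, which binds the small-subunit RNA early in assembly in Escherichia coli. Its values were 13.2, 11.5 and 17.3 FPKM in the PBS columns, 14.7, 24.7 and 29.0 FPKM in Ep1, and 7.19, 7.67 and 8.60 FPKM in Ep2. All Ep2 libraries were the lowest, and Ep1_1 lay within the range of the PBS columns, away from Ep1_2 and Ep1_3. The means were 14.0 ± 2.97, 22.8 ± 7.34 and 7.82 ± 0.718 FPKM (SD, n = 3 each) for PBS1, Ep1 and Ep2. MRPS15 was lower in Ep2 than in Ep1, with a log2 difference of -1.38 (SE 0.21, limma adjusted p = 0.00441), the largest of any member in that comparison. PBS1 was above Ep2 by 0.75 (SE 0.21, limma adjusted p = 0.0128). The difference of PBS1 minus Ep1 was -0.63 (SE 0.21, limma adjusted p = 0.13), and it passed only when Ep1_1 was left out (limma adjusted p = 0.00672). The order of the group means therefore differed between the pair: Ep2, Ep1, PBS1 from high to low for MRPL20, and Ep1, PBS1, Ep2 for MRPS15.

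**Figure D1:**
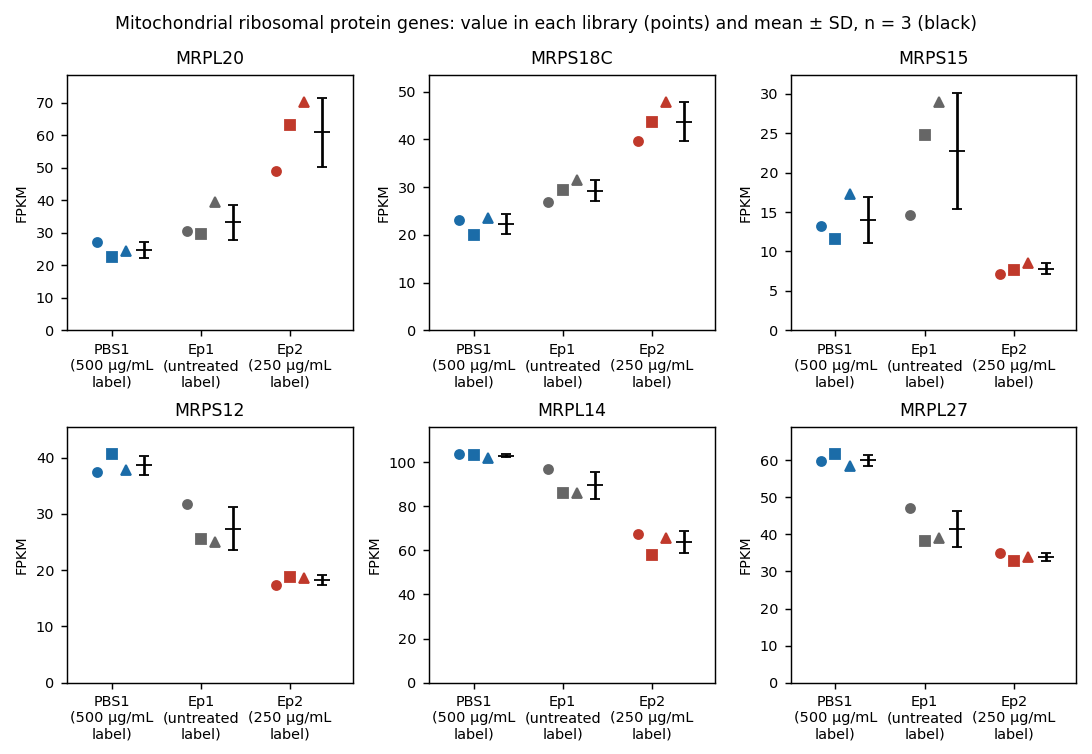
FPKM of 6 members in each library; points are libraries, coloured by group, and black bars are the mean ± SD of 3 libraries. MRPL20 and MRPS18C are highest in the Ep2 libraries, MRPS15, MRPS12, MRPL14 and MRPL27 are lowest there, and MRPS15 in Ep1_1 measured 14.7 FPKM against 24.7 and 29.0 FPKM in the other Ep1 libraries.

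Comparing Ep2 with Ep1 asks what differed between the libraries labelled 250 µg/mL and those labelled untreated. Here 15 members were higher in Ep2, 12 were lower and 46 did not pass, at a limma adjusted p of 0.05 over all tested genes. That is 20.5% and 16.4% of the 73 tested members, beside a background of 13.4% and 14% of all tested genes. The median difference was -0.03 over the members and -0.0035 over all tested genes. In bulk RNA, fewer cells of a type and less RNA per cell cannot be told apart. Groups did not overlap for 28.8% of members in the higher direction and 17.8% in the lower, beside 22% and 20.8% of all tested genes. The counts changed when single libraries were left out, which also makes a group smaller, and these influences were not separated. Without Ep2_3 the counts were 8 higher and 5 lower, and without Ep2_2 they were 10 and 4. The shares of all tested genes called fell too, to 4.93% and 5.75% without Ep2_3 and to 6.03% and 6.69% without Ep2_2. Of the calls, 8 of 15 higher and 4 of 12 lower held whichever library was left out.

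Among large-subunit proteins with a bacterial counterpart, 7 of 28 were higher in Ep2 and 5 lower, beside 13.4% and 14% of all tested genes. MRPL3, whose bacterial counterpart lies close to the site where peptide bonds form, measured 61.0, 56.2 and 57.3 FPKM in Ep1 and 73.3, 74.5 and 71.4 FPKM in Ep2. Its log2 difference was 0.32 (SE 0.06, limma adjusted p = 0.00522). MRPL1, the counterpart of the protein of the mobile L1 stalk, averaged 24.0 ± 0.752 FPKM in Ep1 and 30.4 ± 0.800 FPKM in Ep2 (SD, n = 3 each), a log2 difference of 0.33 (SE 0.06, limma adjusted p = 0.00584). In both genes every Ep2 library was above every Ep1 library. MRPL14 moved the other way, from 96.8, 85.9 and 85.9 FPKM in Ep1 to 67.5, 58.0 and 65.8 FPKM in Ep2, with a log2 difference of -0.48 (SE 0.07, limma adjusted p = 0.00425). It belongs to the face of the large subunit that meets the small one. The calls of these 3 genes held without any 1 library. MRPL11, of the stalk base, at -0.32 (limma adjusted p = 0.0151), lost its call without Ep2_2 or Ep2_3, with adjusted p-values up to 0.0651. MRPL17, at -0.29 (limma adjusted p = 0.0175), lost it without Ep1_1, Ep2_2 or Ep2_3, with values up to 0.0741.

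Among the 19 large-subunit proteins particular to mitochondria, 2 were higher in Ep2 and 2 lower, beside 13.4% and 14% of all tested genes. MRPL39 averaged 45.4 ± 2.47 FPKM in Ep1 and 59.5 ± 4.32 FPKM in Ep2 (SD, n = 3 each), a log2 difference of 0.38 (SE 0.06, limma adjusted p = 0.00485). MRPL45, which lies at the mouth of the exit tunnel and helps to anchor the ribosome to the inner membrane, measured 29.9, 30.5 and 31.2 FPKM in Ep1 and 35.5, 40.1 and 37.8 FPKM in Ep2 (log2 difference 0.30, limma adjusted p = 0.0111). MRPL40, of the central protuberance, measured 26.1, 21.5 and 22.3 FPKM in Ep1 and 17.3, 16.3 and 16.4 FPKM in Ep2. It was lower by a log2 difference of -0.45 (SE 0.08, limma adjusted p = 0.00506). MRPL43 measured 50.6, 35.8 and 35.0 FPKM in Ep1 and 30.8, 29.1 and 30.0 FPKM in Ep2. Here Ep1_1 was far above the other 2 Ep1 libraries, and the log2 difference of -0.40 (limma adjusted p = 0.0266) was -0.23 without it. That call was lost without Ep2_2 or Ep2_3, with adjusted p-values up to 0.0802.

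Of 16 small-subunit proteins with a bacterial counterpart, 4 were higher in Ep2 and 4 were lower, beside 13.4% and 14% of all tested genes. MRPS18C is one of 3 mammalian counterparts of bacterial S18, and it measured 27.0, 29.4 and 31.4 FPKM in Ep1 and 39.7, 43.7 and 47.9 FPKM in Ep2. Its log2 difference was 0.56 (SE 0.09, limma adjusted p = 0.00442), with no overlap between the groups. The related genes MRPS18A and MRPS18B differed by 0.09 and -0.03, with limma adjusted p-values of 0.487 and 0.711. Although they too are counterparts of S18, both were counted here with the proteins particular to mitochondria. Neither was called in any comparison. MRPS10 was higher in Ep2, with means of 20.3 ± 0.862 and 26.0 ± 1.91 FPKM (SD, n = 3 each) and a log2 difference of 0.34 (limma adjusted p = 0.0111). MRPS12, whose bacterial counterpart S12 sits at the decoding site, measured 31.8, 25.5 and 24.9 FPKM in Ep1 and 17.3, 18.8 and 18.7 FPKM in Ep2. Its log2 difference was -0.55 (SE 0.09, limma adjusted p = 0.00447). MRPS17 differed by 0.38 (limma adjusted p = 0.0216), and its call was lost without Ep1_1, Ep1_2, Ep2_2 or Ep2_3, with adjusted p-values up to 0.0821. MRPS2 differed by -0.32 (limma adjusted p = 0.0323) and lost its call without any one of the same 4 libraries, with adjusted p-values up to 0.118.

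Of 9 small-subunit proteins particular to mitochondria, 2 were higher in Ep2 and 1 was lower, beside 13.4% and 14% of all tested genes. MRPS31 averaged 10.3 ± 0.626 FPKM in Ep1 and 14.5 ± 1.16 FPKM in Ep2 (SD, n = 3 each), a log2 difference of 0.45 (SE 0.09, limma adjusted p = 0.00764). MRPS22 differed by 0.30 (limma adjusted p = 0.0109), and that call was lost without Ep2_3 (limma adjusted p = 0.0506). MRPS34 was the lower one, at 73.5, 69.6 and 54.5 FPKM in Ep1 and 55.3, 40.9 and 45.5 FPKM in Ep2. The groups overlapped, since Ep2_1 was above Ep1_3, and the call (log2 difference -0.47, limma adjusted p = 0.0224) was lost without Ep1_1, Ep1_2, Ep2_2 or Ep2_3, with adjusted p-values up to 0.0851.

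**Figure D2:**
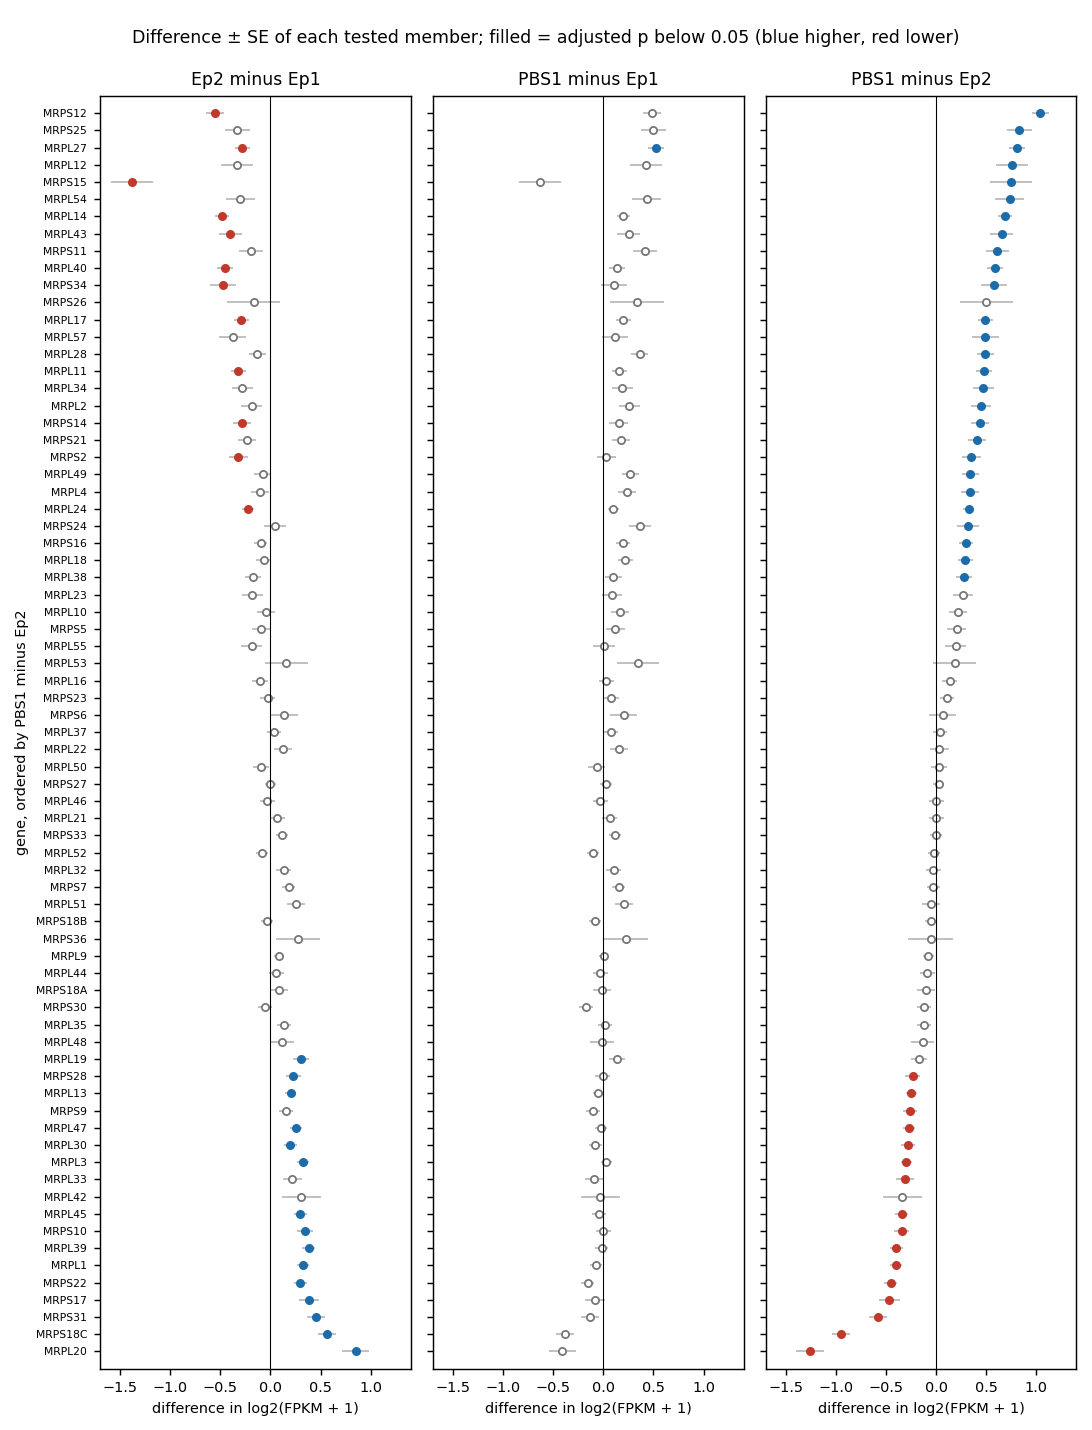
Difference in log2(FPKM + 1) ± SE for each of the 73 tested members in 3 comparisons, ordered by PBS1 minus Ep2; filled points passed a limma adjusted p of 0.05. Calls lie on both sides of 0 for Ep2 minus Ep1 (15 higher, 12 lower) and PBS1 minus Ep2 (27 higher, 16 lower), and MRPL27 is the one call for PBS1 minus Ep1.

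Between PBS1 and Ep2 more members differed than in either other comparison, and so did more of all genes. In PBS1, 27 members were higher than in Ep2, 16 were lower and 30 did not pass. These are 37.0% and 21.9% of the tested members, beside a background of 25.4% and 24.2% of all tested genes. Groups did not overlap for 38.4% of members in the higher direction and 23.3% in the lower, beside 30.1% and 30.1% of all tested genes. The median difference was 0.04 over the members and 0.0024 over all tested genes. Of these calls, 25 of 27 and 14 of 16 held whichever library was left out, and the counts ranged from 25 to 29 and from 15 to 17 over the alternatives.

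Large-subunit proteins with a bacterial counterpart held 11 of the 28 tested as higher in PBS1 and 7 as lower. Of all tested genes, 25.4% were higher and 24.2% lower. MRPL27, the counterpart of bacterial L27, which reaches toward the peptidyl transferase centre, measured 59.8, 61.6 and 58.5 FPKM in the PBS columns and 34.9, 32.9 and 33.8 FPKM in Ep2. The log2 difference was 0.81 (SE 0.08, limma adjusted p = 0.000244). MRPL14, described above in Ep1 and Ep2, measured 104, 103 and 102 FPKM in the PBS columns, all above the Ep2 libraries, and its log2 difference was 0.69 (SE 0.07, limma adjusted p = 0.000284). MRPL12 is the protein of the flexible stalk that engages elongation factors. It measured 59.3, 58.2 and 56.1 FPKM in the PBS columns and 28.6, 37.6 and 35.7 FPKM in Ep2, which gives a log2 difference of 0.76 (SE 0.16, limma adjusted p = 0.00303). Its Ep1 libraries ran from 57.4 FPKM in Ep1_1 to 34.3 FPKM in Ep1_3 and so spanned nearly the whole range between the other groups. Besides MRPL20, MRPL1 was lower in PBS1, at 24.2, 21.8 and 22.3 FPKM against 30.4, 31.2 and 29.6 FPKM in Ep2 (log2 difference -0.40, SE 0.06, limma adjusted p = 0.000684). The other genes of the stalk and its base were looked at after the value of MRPL12 was seen. MRPL11 was higher in PBS1 by 0.48 (limma adjusted p = 0.000969), whereas MRPL10, the stalk's anchor, and MRPL53 differed by 0.22 and 0.19 and did not pass (limma adjusted p = 0.0676 and 0.484).

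The large-subunit proteins particular to mitochondria numbered 6 higher and 2 lower among 19 tested, beside 25.4% and 24.2% of all tested genes. MRPL54 measured 22.5, 17.8 and 17.0 FPKM in the PBS columns and 9.88, 11.8 and 11.3 FPKM in Ep2, a log2 difference of 0.73 (SE 0.14, limma adjusted p = 0.00222). MRPL43 averaged 47.8 ± 1.41 FPKM in PBS1 and 30.0 ± 0.868 FPKM in Ep2 (SD, n = 3 each), a log2 difference of 0.66 (SE 0.11, limma adjusted p = 0.00131). In both genes the PBS columns lay above all Ep2 libraries. MRPL39 was the more strongly lower of the 2 lower genes, at 45.6, 44.7 and 44.4 FPKM in the PBS columns against 57.3, 56.8 and 64.5 FPKM in Ep2 (log2 difference -0.40, SE 0.06, limma adjusted p = 0.000987). MRPL45 was the other, with a difference of -0.34 (limma adjusted p = 0.00224).

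Of the small-subunit proteins with a bacterial counterpart, 8 of 16 were higher in PBS1 and 5 were lower, which left 3 that did not pass. The shares of all tested genes were 25.4% higher and 24.2% lower. MRPS12 had the largest difference of any member in the higher direction, at 37.5, 40.6 and 37.8 FPKM in the PBS columns against 17.3 to 18.8 FPKM in Ep2 (log2 difference 1.04, SE 0.09, limma adjusted p = 0.000225). With MRPL20 it was one of the 2 members that differed by at least 1 on the log2 scale. MRPS18C measured 23.2, 19.9 and 23.6 FPKM in the PBS columns, below all Ep2 libraries, with a log2 difference of -0.94 (SE 0.09, limma adjusted p = 0.000244). MRPS17 and MRPS10 were lower in PBS1 as well, with differences of -0.47 and -0.34 (limma adjusted p = 0.00426 and 0.00441). Among the 9 small-subunit proteins particular to mitochondria, 2 were higher and 2 were lower, beside the same shares of all tested genes. MRPS25 measured 75, 66.3 and 65.6 FPKM in the PBS columns and 35.5, 37.3 and 42.3 FPKM in Ep2, a log2 difference of 0.83 (SE 0.12, limma adjusted p = 0.000725). MRPS34 was the other higher gene, at 0.58 (limma adjusted p = 0.00433). MRPS31 and MRPS22 were lower in PBS1, by log2 differences of -0.58 and -0.45 (limma adjusted p = 0.000778 and 0.000657).

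**Figure D3:**
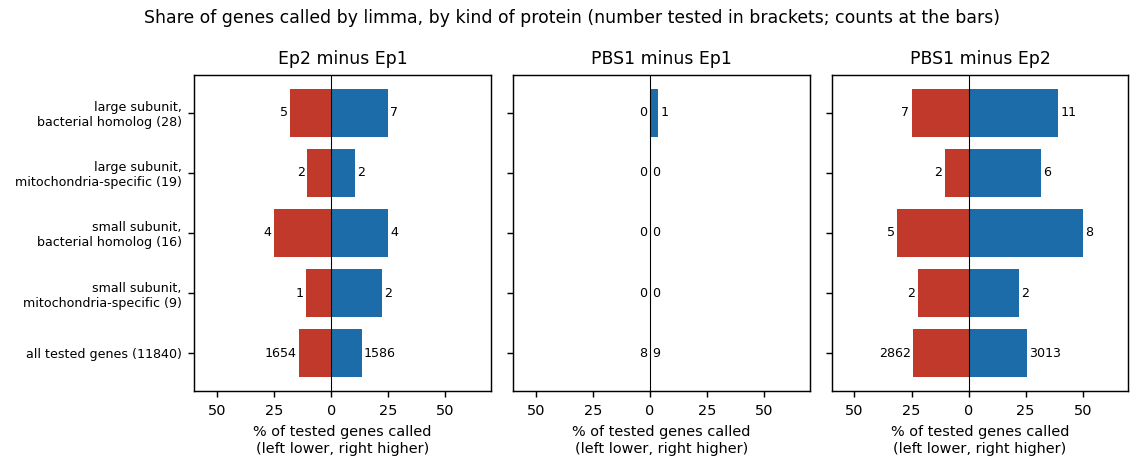
Percentage of tested genes that passed a limma adjusted p of 0.05, by subunit and by whether the protein has a bacterial counterpart, with all tested genes in the lowest row; bars to the right are higher, bars to the left lower, and numbers are counts. In PBS1 minus Ep2, 8 higher and 5 lower of the 16 small-subunit bacterial counterparts stand beside 6 higher and 2 lower of the 19 mitochondria-specific large-subunit proteins. Of all tested genes, 25.4% were higher and 24.2% lower. MRPS18A and MRPS18B, counterparts of bacterial S18, are counted as mitochondria-specific.

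Few genes of any kind differed between PBS1 and Ep1. Of the members, 1 was higher in PBS1 and 0 were lower, beside 0.076% and 0.0676% of all tested genes. An unadjusted limma p under 0.05 was found for 23 of the 73 tested members, beside 2648 of the 11840 tested genes. With voom on the recovered fragments, 5 members were higher and 1 was lower, and the calls over all tested genes rose as well, to 2.89% and 1.6%. MRPL27 was the called member, with 47.2, 38.3 and 39 FPKM in Ep1 against the 58.5 to 61.6 FPKM of the PBS columns given above. Its log2 difference of 0.53 (SE 0.08, limma adjusted p = 0.0257) lost its call in 8 of 17 alternatives, among them those without column PBS1, column PBS2, Ep1_2, Ep1_3, Ep2_2 or Ep2_3, with adjusted p-values up to 0.162. MRPL27 was also called lower in Ep2 than in Ep1, at -0.28 (limma adjusted p = 0.0224). That difference was -0.19 without Ep1_1, and its call was lost without Ep2_2 or Ep2_3, with adjusted p-values up to 0.0766.

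The count of members called between PBS1 and Ep1 turned on Ep1_1. By correlation that library was the Ep1 library closest to the PBS columns, so more calls without it are no separate result. Without that library, 18 members were higher in PBS1 and 2 were lower, beside 9.21% and 6.81% of all tested genes. The PBS columns lay above all Ep1 libraries for 17.8% of members and below them for 6.85%, beside 12.8% and 10.9% of all tested genes. The median difference was 0.10 over the members and 0.0027 over all tested genes, and 0.12 over the members without Ep1_1. MRPS12 came nearest to a call after MRPL27, with a difference of 0.49 (SE 0.09, limma adjusted p = 0.0593). MRPS25 at 0.50 (limma adjusted p = 0.0916) and MRPS18C at -0.38 (limma adjusted p = 0.08) did not pass. All 3 passed without Ep1_1 and in voom on the recovered fragments. MRPL12 and MRPL54 each differed by 0.43 and did not pass (limma adjusted p = 0.155 and 0.129). Of the alternatives, only the one without Ep1_1 called them (limma adjusted p = 0.00762 and 0.0121).

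Over the 3 groups, 44 of 73 members passed limma's F-test (adjusted p under 0.05), and 45.4% of all tested genes did. The comparisons share libraries, so their calls are set side by side here and no agreement between them is read. Of the members, 14 (19.2%, beside 11.8% of all tested genes) were called higher in Ep2 than in both other groups, with no call between PBS1 and Ep1: MRPL1, MRPL3, MRPL13, MRPL20, MRPL30, MRPL39, MRPL45, MRPL47, MRPS10, MRPS17, MRPS18C, MRPS22, MRPS28 and MRPS31. The mirror pattern, lower in Ep2 than in both, held 11 members (15.1%, beside 12.3%): MRPL11, MRPL14, MRPL17, MRPL24, MRPL40, MRPL43, MRPS2, MRPS12, MRPS14, MRPS15 and MRPS34. A further 15 members (20.5%, beside 13% of all tested genes), MRPL12 and MRPS25 among them, were called only between PBS1 and Ep2 and were higher in PBS1. MRPL33 and MRPS9 (2.74%, beside 12.3%) were called only in that comparison and were lower. MRPL19 was called only between Ep2 and Ep1, higher in Ep2, and MRPL27 in all 3 comparisons. No call was made in any comparison for 29 members (39.7%, beside 47.2%). By the order of the group means, 33 members (45.2%) ran from PBS1 through Ep1 down to Ep2, as did 30.9% of all tested genes, and 18 members (24.7%) ran from Ep2 through Ep1 down to PBS1, as did 29.9% of all tested genes.

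The members without a call included abundant genes and genes with a wide spread. MRPL51, the most abundant member, averaged 105 ± 8.33, 91.0 ± 8.44 and 109 ± 9.59 FPKM (SD, n = 3 each) in PBS1, Ep1 and Ep2. Its log2 difference of 0.26 for Ep2 minus Ep1 missed the threshold (limma adjusted p = 0.0533), but with the length trend described below removed it was 0.31 and passed (limma adjusted p = 0.0213). MRPS26 measured 79.9, 88.1 and 43.0 FPKM in the PBS columns, 74.3, 54.0 and 37.1 FPKM in Ep1 and 46.2, 51.3 and 44.2 FPKM in Ep2. Its libraries of one group differed by about as much as any between groups, and the SE of its differences was 0.27. MRPS36 measured 10.9 FPKM in column PBS1 but 5.31 and 4.42 FPKM in columns PBS2 and PBS3. The remaining 6 libraries of MRPS36 lay between 5.06 and 6.80 FPKM, so column PBS1 was the high one. MRPL15, the untested member, was between 0.0483 and 1.43 FPKM in the 9 libraries.

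Gene length was examined because short genes can behave unlike long ones in a table scaled by length, and the members are short. Their median length in the table was 1097 bases, against 2818 bases for all tested genes, and 41.1% of members but 12.9% of all tested genes were at most 1000 bases long. Length is 1 value per gene, so it could enter only across genes and not within the fit of a gene. Across genes, which share libraries and are not independent replicates, the difference of PBS1 minus Ep2 had a Spearman correlation with length of -0.291 over the 73 members and -0.158 over all tested genes (Pearson r of -0.188 and -0.169). For PBS1 minus Ep1 the Spearman values were -0.305 and -0.228, and for Ep2 minus Ep1 they were 0.196 and 0.064. Shorter members thus tended to stand higher in PBS1, as did shorter genes in the whole table. For PBS1 minus Ep2, 14 of 30 members of at most 1000 bases were higher and 5 were lower. These are 46.7% and 16.7%, beside 32.1% and 16.9% of all tested genes of that length. Among longer members the calls were 13 higher and 11 lower of 43, or 30.2% and 25.6%, beside 24.5% and 25.3% of the longer genes.

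The calls were then repeated after the trend on length had been removed from each library. For Ep2 minus Ep1, 17 members were higher and 11 lower (23.3% and 15.1%), beside 14.7% and 14.3% of all tested genes. For PBS1 minus Ep2, 26 were higher and 17 lower (35.6% and 23.3%), beside 24.3% and 25.3%. For PBS1 minus Ep1, 1 was higher and 0 were lower, beside 0.152% and 0.169%. The median differences over the members became -0.01, 0.03 and 0.03 in the same order as the counts above, so the value for PBS1 minus Ep1 fell from 0.10. MRPL20 is 478 bases long and MRPS15 is 942 bases long. In the comparisons with Ep2, both remained far from 0 and opposite in sign. PBS1 minus Ep1 had the same sign in both genes with the trend removed, at -0.48 and -0.70 (limma adjusted p = 0.129 and 0.131). With the trend removed, Ep2 minus Ep1 was 0.91 for MRPL20 (limma adjusted p = 0.00433) and -1.34 for MRPS15 (limma adjusted p = 0.00446), and PBS1 minus Ep2 was -1.39 and 0.64 (limma adjusted p = 0.000262 and 0.0366). Removing the trend took the SD of the members' PBS1 minus Ep2 differences only from 0.422 to 0.415. The shortest tested member, MRPS6 at 437 bases, and the longest, MRPL37 at 6119 bases, had PBS1 minus Ep2 differences of 0.07 and 0.04. Neither passed, and that of MRPS6 was -0.07 with the trend removed.

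**Figure D4:**
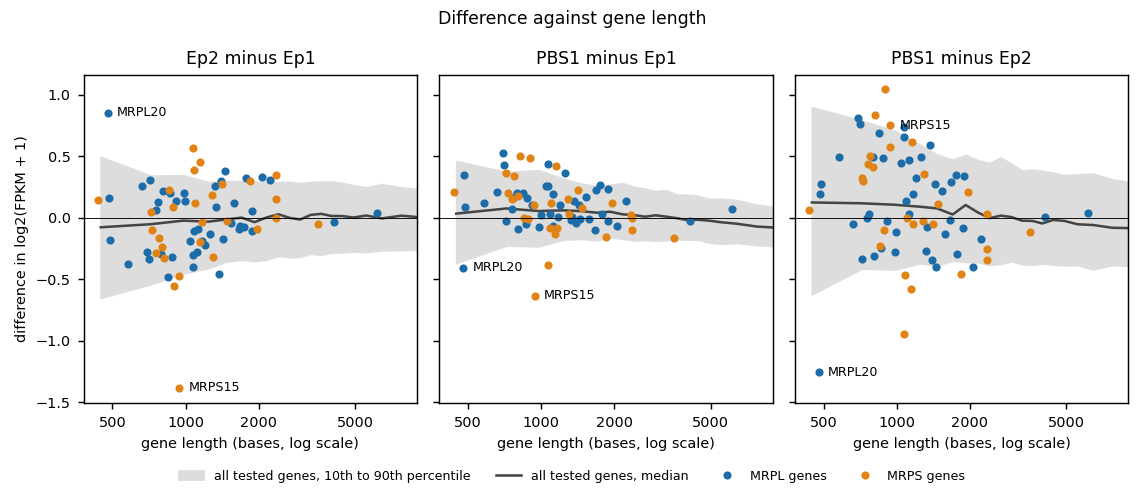
Difference in log2(FPKM + 1) against gene length in bases (log axis) for the MRPL and MRPS genes in 3 comparisons; the line and band are the median and the 10th to 90th percentile of all tested genes. MRPL20 and MRPS15 lie outside the band in Ep2 minus Ep1, with differences of 0.85 and -1.38.

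Ribosome proteins and helpers that carry other names moved in both directions as well. Of 6 tested mitochondrial ribosome proteins with other symbols, 1 was higher and 3 were lower in Ep2 than in Ep1, and 4 were higher and 1 was lower in PBS1 than in Ep2. The shares of all tested genes were 13.4% and 14% for Ep2 minus Ep1 and 25.4% and 24.2% for PBS1 minus Ep2. GADD45GIP1, a large-subunit protein, averaged 79.8, 67.9 and 45.9 FPKM in PBS1, Ep1 and Ep2. Its log2 differences were -0.54 for Ep2 minus Ep1 (limma adjusted p = 0.0111) and 0.78 for PBS1 minus Ep2. AURKAIP1 and CHCHD1 of the small subunit were higher in PBS1 than in Ep2 by 0.75 and 0.56, and so was ICT1, a peptidyl-tRNA hydrolase built into the large subunit, by 0.44. PTCD3, a small-subunit protein, was lower in PBS1 than Ep2, at -0.35 (limma adjusted p = 0.00932). DAP3, a GTP-binding protein of the small subunit, did not pass in any comparison. For Ep2 minus Ep1, the calls of AURKAIP1, ICT1 and PTCD3 were lost in 10, 6 and 3 of 18 alternatives, and that of GADD45GIP1 in 0. Their PBS1 minus Ep2 calls and that of CHCHD1 held in every alternative.

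Of 12 tested translation factors, 3 were higher and 0 were lower in Ep2 than in Ep1, while 1 was higher and 4 were lower in PBS1 than in Ep2, beside the same shares of all tested genes (13.4% and 14%, then 25.4% and 24.2%). The higher one was the elongation factor TUFM, at 0.23 (limma adjusted p = 0.036). Its call was lost with the length trend removed (limma adjusted p = 0.0809) and without column PBS1, column PBS2 or any Ep2 library, with adjusted p-values up to 0.139. The release factor homologue MTRF1 was higher in Ep2 than in Ep1 by 0.52 (limma adjusted p = 0.00777), at means of 3.8 and 2.36 FPKM. Its PBS1 minus Ep2 difference of -0.31 (limma adjusted p = 0.027) lost its call in 5 of 16 alternatives. GFM2, which takes part in ribosome recycling, and LRPPRC, which stabilises mitochondrial messenger RNA, were both lower in PBS1 than Ep2, at -0.36 and -0.31 (limma adjusted p = 0.00761 and 0.00221). Both were also called higher in Ep2 than in Ep1, but those calls were lost in 8 and 2 of 18 alternatives. Of 21 tested assembly factors, 2 were higher and 1 was lower in Ep2 than in Ep1. The lower one, MTG1, lost its call in 6 of 18 alternatives. In PBS1, 6 were higher and 4 were lower than in Ep2, beside the shares of all tested genes given above. With the length trend removed these counts were 4 and 4, beside 24.3% and 25.3% of all tested genes. FASTKD2 and MTERF3, both needed for the large subunit, were higher in Ep2 than in Ep1 by 0.47 and 0.39, and PBS1 minus Ep2 was -0.50 and -0.48. MPV17L2 and the rRNA methyltransferase MRM1 were higher in PBS1 than in Ep2 by 0.90 and 0.65. None of these 39 genes passed between PBS1 and Ep1 in the main fit, where limma made 0 calls in each of the 3 lists. Without Ep1_1, AURKAIP1, CHCHD1 and MPV17L2 were called higher in PBS1 (limma adjusted p = 0.00545, 0.00563 and 0.0059). MRM1 was called higher in that setting and in voom on the recovered fragments. Without Ep1_1, 9.21% of all tested genes were called higher. Only named genes with a difference of at least 0.3 were followed in this way.

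Some members share their place in the genome with other genes. Of the 74, 13 overlapped another gene of the table, and 10 of them a gene on the opposite strand. Overlap was taken over the whole span from gene start to gene end, so it need not touch the counted bases. Whether counting used the strand is not given in the sources used here. Fragments from a stretch that both genes share therefore cannot be told apart. MRPS22 overlaps COPB2, which averaged 80.8 FPKM, over 6032 bases of a span of 21902. MRPL14 overlaps TMEM63B at 11.6 FPKM over 3888 bases of a span of 14435. MRPL49 overlaps SYVN1 at 28.3 FPKM over 90 bases of a span of 4071. MRPL20, MRPS15, MRPS12 and MRPS18C overlap no other listed gene. MRPS11 and MRPL46 lie next to each other and are read in opposite directions, with 65 bases between them. MRPS11 measured 32.3, 32.7 and 34.0 FPKM in the PBS columns and 21.7, 21.3 and 20.8 FPKM in Ep2, a log2 difference of 0.61 (SE 0.12, limma adjusted p = 0.00195). MRPL46 measured 6.78, 6.68 and 7.45 FPKM against 7.18, 6.78 and 6.88 FPKM, with a limma adjusted p of 0.978. The difference between the neighbours was not itself tested.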

How the data were processed

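The authors deposited 1 table of FPKM per gene for 9 libraries, with gene length, per the file headers; 0 columns of other samples were present. Bowtie 0.12.2 and the build mm8 are named in the submitters' processing notes. Since mm8 is mouse and the table lists ferret scaffolds, no coordinates are printed. How reads were counted, by strand or between gene copies, is not given in the sources used here, so members with near-identical copies are uncertain.

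Log2(FPKM + 1) was fitted with limma 3.58.1 in R 4.3.3, with an intensity trend, 1 mean per group and all 9 libraries. Benjamini-Hochberg adjustment ran over 11840 genes. Differences and folds on this scale understate changes of low genes. FPKM times length gave whole fragments for 100% of values, within 0.02 of a whole number, and these were tested with voom. The length trend was a lowess curve (span 0.3) over all tested genes. Libraries of a group differed beyond sampling noise (chi-square per degree of freedom 2.73 to 10.9), so none was counted as a duplicate.

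Named were MRPL20 and MRPS15, up to 8 called members in each direction of each comparison, up to 3 in each kind of protein, the shortest and longest, the 3 highest and 3 lowest, members called in opposite directions, and up to 4 called genes of each other list. Members, lists and tests were chosen with earlier results of these data known. Members not named here have their counts in the text. Alternatives were other pseudocounts, filters and scalings, the length trend, voom, 6 libraries per pair, the replicate block and each library left out. No reference sequence was used.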

Additional observations from a re-analysis of the deposited data

How the results depend on the processing

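Of 85 differences of named genes that were called or at least 0.3 in size, 0 reversed in any alternative; smaller uncalled ones were not followed, and that of MRPS6 for PBS1 minus Ep2 turned from 0.07 to -0.07 with the length trend removed. For PBS1 minus Ep2 and the F-test, every count stayed within 1.5 times. For Ep2 minus Ep1 the higher count of 15 ranged from 8 to 17 and the lower count of 12 from 4 to 17 when 1 library was left out. For PBS1 minus Ep1 the higher count of 1 was 2 with a minimum of 5 FPKM, 0 with no filter on low values, 5 with voom and 0 with only the 6 libraries compared, and ranged from 0 to 18 when 1 library was left out. The lower count of 0 was 1 with voom and ranged from 0 to 2 when 1 library was left out. The causes were not tested. The number of genes in the adjustment, which each filter sets, was not varied alone. No scaling moved the median of all tested genes by more than 0.05. Without Ep1_1 the members' median for Ep2 minus Ep1 was 0.02 instead of -0.03. Ep1 and Ep2 share replicate numbers, and the correlations of same-numbered libraries' deviations were 0.152, 0.072 and 0.0647. Those of differently numbered libraries ran from -0.127 to 0.0733, the highest being Ep1_2 with Ep2_3. These small values do not settle whether the numbers mark pairs, and the main fit did not use them as pairs. With the replicate block, 15 members were higher and 12 lower (12.5% and 13.1% of all tested genes), and 24 of these 27 calls were among the 27 without the block. At this depth 1 fragment on 1000 bases is worth 0.0739 to 0.0802 FPKM, so MRPL15, at 1 to 29 fragments, cannot be compared.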
